A study of Mus musculus with 12 samples.

Results

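Differentiated 3T3-L1 adipocytes that had received a control siRNA were examined for what they express at baseline. They make up 6 of the 12 libraries of an RNA sequencing study in which the other libraries came from the same cells electroporated with siRNAs against Zfp407. The 6 libraries were taken by their label, one for each independent control electroporation. Every group received 0.75 nmol of siRNA by electroporation 2 days after differentiation, so cells that were never electroporated are not part of the data described here. Of 39248 rows in the deposited table, 35583 carried a single gene name and were described, and 18465 of these were protein-coding rows outside the mitochondrial chromosome, called nuclear protein-coding rows below.

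The 3T3-L1 line is a clonal mouse embryo fibroblast line that turns into fat cells when it is treated with an adipogenic hormone mixture. The switch is run by a cascade in which Cebpb and Cebpd come first and Pparg and Cebpa follow, which then maintain the genes for fatty acid uptake, triglyceride storage, insulin-stimulated glucose uptake and hormone secretion. A cultured line of this kind holds no blood vessels, immune cells or nerves, and it is a model of white rather than brown fat. Because all libraries come from 1 clone, the spread between them is that between electroporations, not between animals. The labels do not say whether the electroporations used separate cultures, so part of the spread given by each SD may be technical.

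Levels are given in FPKM, fragments per kilobase of transcript at a fixed number of mapped fragments, so that genes of different length can be set side by side. The total behind the scaling was estimated from the low values of protein-coding genes with 1 annotated transcript, as the most frequent product of value and length, which 9 to 19 of 147 to 160 rows per library shared. This put it at about 31500000 to 36400000 fragments per library. By this estimate 1 fragment on a transcript of 1000 bases was worth 0.0275 to 0.0317 FPKM. Rows of microRNA, tRNA and other short-RNA names held 37.8% ± 0.999 (SD, n = 6) of the summed FPKM and nuclear protein-coding rows 16.6% ± 1.18, and the shares given below are of the latter. FPKM is divided by length, so the short-RNA share is not a share of sequenced fragments. The rows mmu-mir-689-2, mmu-mir-2134-2 and mmu-mir-2134-4 had near-equal means of 89270, 89269.9 and 89132 FPKM. Whether such rows hold the same reads more than once was not tested. Over the 9542 nuclear protein-coding rows with a mean of at least 1 FPKM, Pearson correlations between libraries on the log2(FPKM + 1) scale ran from 0.990 to 0.995 across genes, which are not independent replicates. Library 2 stood apart. It was the lowest of the 6 in 36.1% of these rows as deposited, and after each library was centred on its median it was the lowest in 20.2% and the highest in 26.3%, each the largest share of any library. Between 25 and 52 rows (0.262% to 0.545%) differed by more than 2-fold within any pair of libraries. In bulk RNA, a lower level in a share of the cells and a lower level per cell cannot be told apart.

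A mean of 1 FPKM or more was reached by 13120 of the 35583 single-name rows, and 12400 of them were at or above that level in each of the 6 libraries. Among nuclear protein-coding rows the count was 9542 of 18465, with a median of 16.2 FPKM. Counts of list members above 1 FPKM given below are to be read beside that share. The range within the expressed rows was wide: 6152 reached 10 FPKM, 897 reached 100 and 59 reached 1000. A small group of rows carried much of the signal. The 10 highest held 8.98% ± 0.318 of the summed nuclear protein-coding FPKM and the 100 highest 29.5% ± 0.620 (SD, n = 6). At the other end, 3472 nuclear protein-coding rows were listed at 0 in every library. The number of rows at 1 FPKM or more differed little between libraries, from 9500 to 9553.

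Fat cell genes stood among the housekeeping genes at the very top of the ranking. Fabp4, the cytosolic fatty acid carrier of adipocytes, was the highest nuclear protein-coding row, with a lowest value of 8165, a median of 9269 and a highest value of 11125 FPKM. Its mean was 9588 ± 1164 (SD, n = 6), and its lowest library was above the highest value of every other nuclear protein-coding row except Eef1a1. That gene, the elongation factor that brings aminoacyl-tRNA to the ribosome, followed at 9033 ± 1177, and the ranges of both overlapped. The iron storage chains Ftl1 and Fth1 came next at 5100 ± 1426 and 4418 ± 120. Cfd, the secreted complement protease adipsin, ranked 5 with 3361 at its lowest, 3553 at its median and 3660 at its highest library. Adipoq, which encodes adiponectin, ranked 7 at 3026 ± 289. Scd1, the enzyme that puts the first double bond into stearate, ranked 8 at 2972 ± 207, and Lpl, the lipase that releases fatty acids from circulating lipoproteins, ranked 9 at 2836 ± 113. Adipoq, Scd1 and Lpl had overlapping ranges, so their order is not settled by these libraries.

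The rest of the 30 highest rows were mostly genes of protein synthesis and glycolysis. Ribosomal proteins filled much of it, from Rps27 at 2400 ± 218 to Rps4x at 1453 ± 65.9. The others of this class were Rps15a, Rps28, Rpl32, Rplp1, Rplp0, Rps12, Rpl23a, Rps24, Rpl6 and Rpl9. The glycolytic enzymes Gapdh at 3433 ± 253, Aldoa at 2376 ± 101 and Tpi1 at 1524 ± 89.2 were also there. Ppia, a prolyl isomerase, was at 2048 ± 195, Tpt1, a translationally controlled protein, at 2226 ± 328 and Bsg, a chaperone of lactate transporters, at 1591 ± 64.6. The mitochondrial ATP synthase beta chain Atp5b was at 1470 ± 76.6 and the cytochrome oxidase subunit Cox7b at 1462 ± 257. Bgn, the matrix proteoglycan biglycan, closed the set at 1410 ± 48.7. A predicted gene, Gm17604, ranked 16 with a wide range of 1411 to 2756. Many genes of this group have near-identical processed copies elsewhere in the genome, so the share of reads the authors' estimation gave to each is uncertain. The authors' status column marks the Gapdh row as failed in their test.

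**Figure D1:**
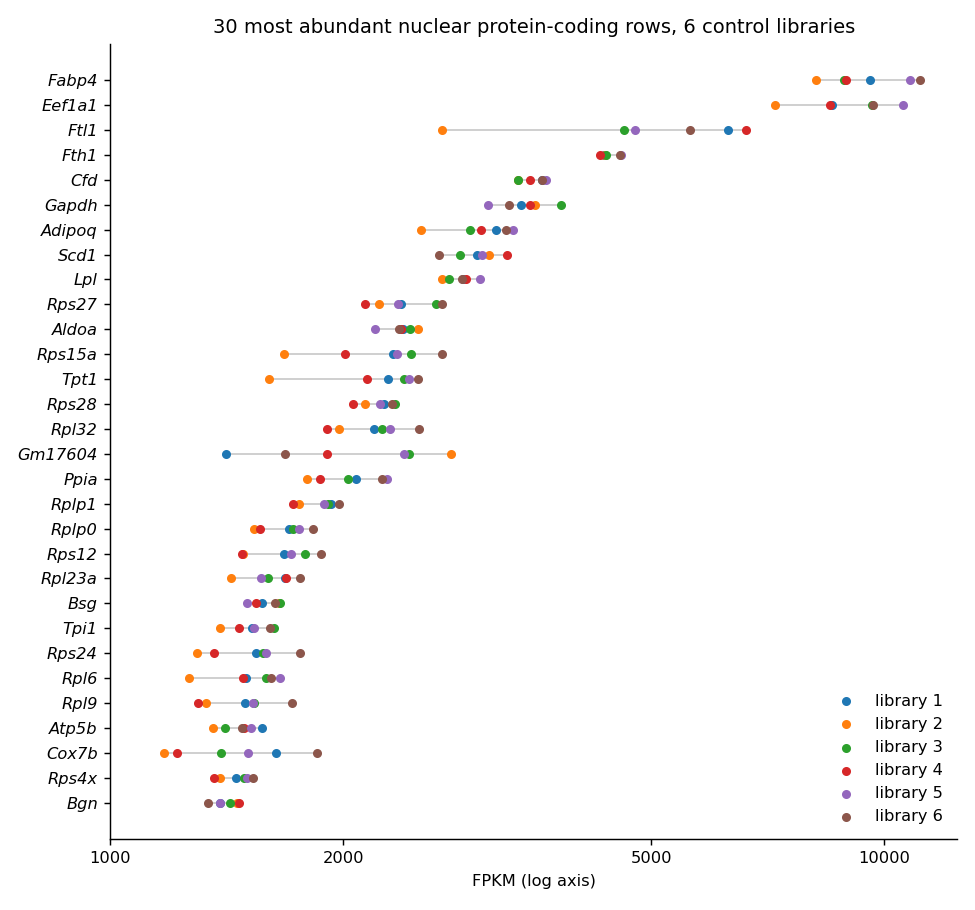
The 30 most abundant nuclear protein-coding rows, ordered by mean, with FPKM on a log axis and 1 point per control library; grey bars join the lowest and highest library. Fabp4 lies between 8165 and 11125 FPKM, and Ftl1 is spread from 2687 to 6627 while Fth1 stays between 4289 and 4576.

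The labelled cell type was checked against 22 defining adipocyte genes, and all 22 were above 1 FPKM. Their median was 380 FPKM, against 16.2 for all nuclear protein-coding rows at 1 or more, and 18 of the 22 were above 100. Together they held 4.99% ± 0.183 of nuclear protein-coding FPKM (SD, n = 6). The lowest was Lep, the leptin gene, at 9.80 ± 0.993, named because it is the lowest. Library values were tight in this set: the median coefficient of variation (CV, the SD as a percentage of the mean) was 4.72%, against 7.11% for all nuclear protein-coding rows at 1 or more.

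Of 26 adipogenic transcription factors with a row of their own, 24 were above 1 FPKM, with a median of 39.0. Pparg, the nuclear receptor that is required for fat cell formation, was the highest, with 249 at its lowest, 253 at its median and 263 at its highest library. Srebf1, which drives fatty acid synthesis genes, followed at 187 ± 21.2. The order then ran to Tcf7l1 at 89.0 ± 10.2 and Cebpa at 84.2 ± 2.68, whose ranges overlapped. The early factor Cebpb was at 59.4 ± 2.58, below Cebpa in each library. Gata2, a factor that holds precursors back from differentiation, had a mean of 0.952 ± 0.0948, and Klf5 one of 0.614 ± 0.0970.

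Genes for taking up and binding fatty acids were led by Fabp4 and Lpl, followed by Dbi, the acyl-CoA binding protein, at 1147 ± 150 and Acsl1, the acyl-CoA synthetase of the fat cell, at 875 ± 28.2. Of 13 members with a row, 10 were above 1 FPKM. The 3 below were Gpihbp1, the endothelial anchor of Lpl, at 0.396 ± 0.0902, Fabp3, the heart and muscle carrier, at 0.159 ± 0.0758, and Acsl6 at 0.0128 ± 0.0215. The family was thus spread from 9588 FPKM for Fabp4 to under 1 FPKM for Fabp3, with Fabp5 between them at 361 ± 36.3.

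The lipogenic and desaturation list had 18 of 19 members above 1 FPKM and a median of 53.0. Behind Scd1 came Scd2 at 493 ± 30.9, the citrate carrier Slc25a1 at 294 ± 14.1 and fatty acid synthase, Fasn, at 162 ± 23.5. Fasn ranged from 126 to 195 between libraries, a CV of 14.6%. Elovl3, an elongase typical of brown fat and skin, was the member below 1, at 0.0471 ± 0.0331. In triglyceride assembly, 14 of 17 members were above 1 FPKM. Gpd1, which makes glycerol 3-phosphate, led at 836 ± 37.95, followed by the acyltransferases Dgat1 at 235 ± 9.98, Agpat2 at 232 ± 7.19 and Dgat2 at 146 ± 5.07. The gut and liver route was low, with Mogat1 at 0.208 ± 0.203 and Mogat2 at 0.0664 ± 0.0582, and Lpin3 was at 0.606 ± 0.236.

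Lipid droplet proteins split by the tissue they are known from. Cidec, which fuses droplets in white fat cells, had a lowest value of 1001, a median of 1037 and a highest of 1054 FPKM, so the 6 libraries were within a narrow band. Plin1, the coat protein that gates lipolysis, was at 355 ± 18.3, Plin4 at 218 ± 17.1 and Plin2, the coat of droplets in most cells, at 135 ± 10.3. By contrast Plin5, the coat of oxidative tissues, was at 0.0418 ± 0.0238, Fitm1, the muscle form of its family, at 0.00547 ± 0.0134 and Cidea, the brown fat relative of Cidec, at 0.604 ± 0.178. In all, 9 of 12 droplet genes were above 1 FPKM.

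Lipolysis genes were above 1 FPKM in 11 of 15 cases, with a median of 64.8. G0s2, the inhibitor of adipose triglyceride lipase, led at 669 ± 34.3, ahead of Pnpla2, that lipase itself, at 597 ± 18.9, and of the hormone-sensitive lipase Lipe at 432 ± 43.9. The highest Pnpla2 library, at 613, overlapped the lowest G0s2 library, at 611.5, and both genes were above every Lipe value. Gnas, the stimulatory G protein that links the receptors to cyclic AMP, was at 220 ± 5.25. The 4 members below 1 FPKM were the beta-adrenergic receptor gene Adrb1 at 0.394 ± 0.0779, the natriuretic peptide receptor gene Npr1 at 0.194 ± 0.0955, the aquaglyceroporin Aqp3 at 0.412 ± 0.184 and the fatty acid amide hydrolase Faah at 0.329 ± 0.113.

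Glucose use was among the strongest programmes by summed level, though not by its median. The 29 genes of glucose uptake and glycolysis held 2.59% ± 0.183 of nuclear protein-coding FPKM (SD, n = 6), and 25 of them were above 1 FPKM. The list median was 48.5 FPKM, below the 64.8 of lipolysis genes and the 176 of complex I, and 5 members reached 1000 FPKM. After Gapdh, Aldoa and Tpi1 the highest was Pgk1 at 1246 ± 58.0. Among the members below 1 were the neuronal or brain forms Aldoc at 0.534 ± 0.104 and Slc2a3 at 0.0632 ± 0.0302, and the liver form Pklr at 0.00190 ± 0.00465. Of the insulin signalling and GLUT4 traffic list, 32 of 34 were above 1 FPKM. Its highest members were the caveolar coat genes Cav1 at 1035 ± 63.3, Cav2 at 448 ± 57.4 and Ptrf at 242 ± 5.29, and then Akt2, the kinase that carries the insulin signal to GLUT4, at 162 ± 5.05. Irs3 and Grb10 were below 1, at 0.293 ± 0.0529 and 0.174 ± 0.0423.

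Among 24 secreted proteins with a row, 19 were above 1 FPKM. Behind Cfd and Adipoq stood the apolipoprotein Apoc1 at 1090 ± 19.7 with a CV of 1.81%, and Retn, which encodes resistin, at 385 ± 18.8. The members below 1 FPKM were Tnf at 0.0162 ± 0.0257, Il6 at 0.453 ± 0.107, Lcn2 at 0.991 ± 0.389, Rbp4 at 0.0383 ± 0.0481 and Enho at 0.222 ± 0.107. Sterol synthesis had 21 of 21 members above 1 FPKM and a median of 32.2. Insig1, the sterol sensor of the endoplasmic reticulum, was its highest row at 276 ± 21.8, followed by Sc4mol at 118 ± 15.7, Fdps at 104 ± 6.45 and Hmgcs1 at 89.6 ± 5.22.

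Which of a pair of related genes stands higher was asked for 12 pairs, and 11 had a row for each gene; Cpt1b shared its row with Chkb. Each difference is the mean over the 6 libraries of log2(FPKM + 1) of one gene minus the other, tested by an exact two-sided sign-flip permutation test. All 11 differences had the same sign in 6 of 6 libraries, so the exact test gave p = 0.03125 for each, the smallest this test can give. Benjamini-Hochberg adjustment over the 11 leaves that value as it is. The test asks only whether an order repeats over these libraries of the same clone. An error in a gene's level that all libraries share is not covered by it. The insulin-responsive transporter Slc2a4 was at 99.3 to 106 FPKM and the basal transporter Slc2a1 at 70.3 to 84.5, a difference of 0.43 (SE 0.025). Fabp4 exceeded Fabp5 by 4.72 (SE 0.023), Plin1 exceeded Plin2 by 1.39 (SE 0.055) and Scd1 exceeded Scd2 by 2.59 (SE 0.012). Within the lipases, Pnpla2 exceeded Lipe by 0.47 (SE 0.070), and the gap was smallest in library 2, at 0.19. The exception to the order in which each pair was written was Dgat2, which was below Dgat1 by 0.68 (-0.68, SE 0.034) in all 6.

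Signalling genes and transcription factors of the pairs were as clearly ordered. The insulin receptor gene Insr, at 17.3 to 21.1 FPKM, exceeded its relative Igf1r, at 3.76 to 4.21, by 2.02 (SE 0.041). With no pseudocount that difference was 2.27. Akt2 exceeded Akt1, which was at 107 ± 5.26, by 0.59 (SE 0.026). Cebpa exceeded Cebpb by 0.50 (SE 0.025), and Pparg exceeded Ppard, which was at 38.7 ± 0.931, by 2.69 (SE 0.022). Ucp2, an uncoupling protein relative found in many tissues, was at 170 to 190 FPKM, whereas Ucp1 was listed at 0 in 5 libraries and at 0.0193 in 1. Cpt1a, the liver form of the carnitine palmitoyltransferase that admits fatty acids to mitochondria, was at 9.61 ± 0.321, and the row shared by Cpt1b and Chkb at 34.0 ± 1.92.

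The brown and beige fat list behaved as a split set. Of its 19 genes, 7 (36.8%) were above 1 FPKM, where 9542 of all 18465 nuclear protein-coding rows were. The list median was 0.283 FPKM. The highest were Slc29a1, a nucleoside transporter, at 142 ± 6.81, the cytochrome oxidase isoforms Cox7a1 at 133 ± 6.13 and Cox8b at 24.5 ± 2.73, and the potassium channel gene Kcnk3 at 26.8 ± 2.21. Ppargc1a, Ebf2 and Tbx15 were also above 1 FPKM. Some genes of thermogenic fat were at or near 0, and those named next were chosen after their values were seen. Ucp1, the uncoupler of brown fat mitochondria, had about 1 fragment in the 6 libraries together (0.995 by the estimated total and a transcript of 1636 bases). Prdm16, a brown fat transcription factor, had about 2 (2.04), and Dio2, the enzyme that activates thyroid hormone, about 6 (6.06). Lhx8 was listed at 0 in all 6. Other members below 1 FPKM had more fragments in the 6 libraries together, with 136 for Cidea, 121 for Tnfrsf9, 117 for Cited1 and 84.5 for Otop1.

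Some genes of fibroblasts and fat cell precursors were present beside the adipocyte genes. Of 25 preadipocyte and fibroblast markers with a row, 17 were above 1 FPKM. The median over all 25 was 15.4. The 16.2 of all expressed rows leaves out rows below 1 FPKM, so these medians are not like for like. Vim, the intermediate filament of mesenchymal cells, was the highest with 1226, 1371 and 1489 FPKM as its lowest, median and highest value. Dlk1, the preadipocyte surface protein that falls during differentiation, had a mean of 881 ± 54.2, in a row the authors' status column marks as failed. Postn, a matrix protein of fibroblasts, was at 582 ± 73.4 and S100a4 at 570 ± 114, the latter spread from 400.0 to 694. These 4 were the only members of the 25 at 100 FPKM or more, and 1 member was listed at 0 in all 6 libraries. The highest fibroblast markers thus overlapped the adipocyte list. The mean of Vim was above that of 18 of the 22 adipocyte identity genes and the mean of Dlk1 above 17. Whether these markers come from cells that did not differentiate was not tested.

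**Figure D2:**
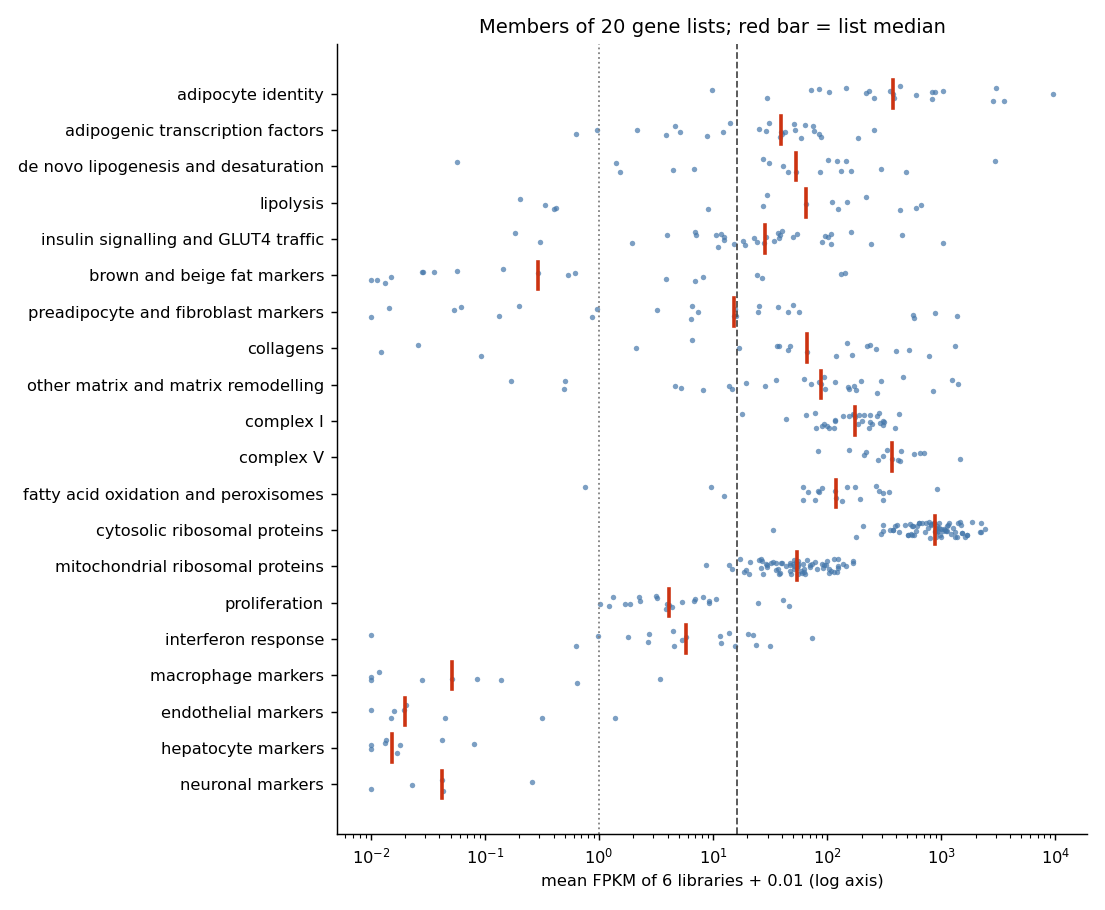
Mean FPKM (plus 0.01, log axis) of the members of 20 gene lists, 1 point per gene with vertical jitter; red bars are list medians, the dotted line marks 1 FPKM and the dashed line the median of 16.2 FPKM of all nuclear protein-coding rows at 1 or more. Adipocyte identity genes have a median of 380 and marker lists of 4 other cell types have medians under 0.1 FPKM.

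Matrix genes were abundant. Of 21 collagen genes 18 were above 1 FPKM and 10 above 100, with a median of 66.1. The interstitial collagens Col3a1 at 1323 ± 58.5 and Col1a2 at 788 ± 44.6 led, followed by the microfibrillar chains Col6a1 at 523 ± 31.8 and Col6a2 at 399.5 ± 26.8. In the list of other matrix and remodelling genes 26 of 29 were above 1 FPKM, led by Bgn, by the collagen-binding protein Sparc at 1241 ± 61.9, by P4hb, a subunit of prolyl hydroxylase, at 842 ± 44.8 and by the proteoglycan Dcn at 465 ± 35.02. Collagens held 0.863% ± 0.0780 and the other matrix genes 1.19% ± 0.0449 of nuclear protein-coding FPKM. Contractile genes were led by the cytoplasmic actins Actb at 827 ± 40.2 and Actg1 at 523 ± 13.3, then Tpm1 at 117 ± 11.3 and Cnn2 at 89.0 ± 5.03, and 12 of 15 were above 1 FPKM.

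The mitochondrial programme was high as a whole. Every one of the 33 complex I subunits with a row was above 10 FPKM, with a median of 176, and 26 were above 100. Its highest members were Ndufv3 at 422 ± 15.9, Ndufb9 at 395 ± 37.0, Ndufa3 at 315 ± 21.4 and Ndufab1 at 308 ± 22.8. The 4 complex II genes had a median of 249, led by Sdha at 607 ± 54.1, and the 10 genes of complex III and cytochrome c one of 302, led by Uqcrq at 628 ± 39.3. For complex V the median was 368 over 15 genes, with Atp5b highest. Complex IV was the one list of the 5 with members below 1, having 11 of 13 above that level and a median of 216. Taken as 1 group, nuclear genes of complexes I to V held 4.13% ± 0.125 of nuclear protein-coding FPKM (SD, n = 6), a range of 3.97% to 4.26%.

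Genes of the mitochondrial chromosome stood far above their nuclear partners per length. The 10 of 15 listed genes with a row of their own, rRNA genes included, had a median of 3050 FPKM. The medians of nuclear-encoded subunits were 176 for complex I, 302 for complex III and cytochrome c and 216 for complex IV. The mitochondrial genes were led by mt-Nd1 at 13305 ± 1157, mt-Co1 at 11381 ± 519, mt-Co2 at 7923 ± 421 and mt-Nd2 at 5618 ± 1269. Subunits of 1 complex differed: mt-Nd1 was at 13305 and mt-Nd3 at 1543 ± 277, although both belong to complex I and lie on the same strand of the same genome. The row that mt-Atp6, mt-Atp8 and mt-Co3 share was at 56178 ± 5126. The mitochondrial rRNA genes mt-Rnr1 and mt-Rnr2 were listed at 556 ± 49.2 and 527 ± 59.5, below the mRNAs listed above, and these and mt-Nd3 are named because of those values.

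Pathways that feed the respiratory chain were on throughout. Of 22 genes of fatty acid oxidation and peroxisomes 21 were above 1 FPKM, with a median of 118, led by the short-chain acyl-CoA dehydrogenase Acads at 913 ± 31.2, Hadhb at 348 ± 44.2, Etfa at 309 ± 15.1 and catalase, Cat, at 307 ± 13.1. All 22 genes of the citric acid cycle and pyruvate entry were above 10 FPKM, with a median of 158. Mdh2 led at 494 ± 18.8, followed by pyruvate carboxylase, Pcx, at 407 ± 29.8, and Idh3b was at 223 ± 7.96. Breakdown of branched-chain amino acids, a route that is strong in fat cells, had 17 of 17 genes above 10 FPKM and a median of 83.4, with Ivd at 282 ± 20.1, Hibadh at 267 ± 14.1, Bcat2 at 200 ± 11.4 and Acadsb at 195 ± 31.0. The adenine nucleotide carrier Slc25a5 at 524 ± 19.7, the chaperone Hspa9 at 431 ± 12.3, the phosphate carrier Slc25a3 at 368 ± 14.8 and the channel Vdac1 at 350.0 ± 14.0 led the carrier and biogenesis list. Mitochondrial ribosomal proteins, 70 of 70 above 1 FPKM, had a median of 53.9, against 883 for the 73 cytosolic ribosomal proteins, which held 13.1% ± 0.618 of nuclear protein-coding FPKM.

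Cell cycle genes were low but measured. All 23 proliferation genes were above 1 FPKM, with a median of 4.12, and 4 were above 10. Those were Pcna, the DNA polymerase clamp, at 46.1 ± 5.67, Mcm7 at 40.6 ± 30.3, the mitotic kinase Cdk1 at 24.8 ± 2.59 and Tyms, the thymidylate synthase, at 10.7 ± 1.25. Cell cycle inhibitors and D cyclins had a median of 32.6 and were led by the inhibitors Cdkn2c at 267 ± 17.4 and Cdkn2a at 201 ± 13.6, then Ccnd2 at 136 ± 3.19 and Ccnd3 at 69.6 ± 1.51. Immediate early genes were modest, with Fosl2 at 22.6 ± 0.870, Myc at 17.3 ± 1.81, Egr1 at 14.0 ± 1.79 and Ier3 at 13.5 ± 1.67 as the highest of 17. Of the heat shock and unfolded protein list 17 of 18 were above 1 FPKM, led by Hsp90ab1 at 1317 ± 49.8, Hspa8 at 1207 ± 25.1, Calr at 581 ± 48.3 and Hsp90b1 at 543 ± 48.4.

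Markers of other cell types were mostly below 1 FPKM. Of 63 markers of macrophages, endothelium, skeletal muscle, liver, neurons, lymphocytes, epithelium, bone and cartilage with a row, 6 were above 1 FPKM. The 1 above 10 was Spp1, a phosphoprotein of bone matrix that macrophages also make, at 45.1 ± 2.96. Sox9 of cartilage was at 8.10. The summed level of the 9 macrophage markers was 3.91 to 4.54 FPKM per library, most of it Cd14 at 3.41 ± 0.293. Cd68, which shared its row with Eif4a1, was not counted. The macrophage signalling gene Tyrobp and Emr1 were listed at 0 in all 6, as were Cldn5 of endothelium, Myod1 of muscle and Epcam of epithelium. Endothelial markers summed to 1.62 to 2.07 FPKM, liver markers to 0.0249 to 0.226 and lymphocyte markers to 0.0197 to 0.0742. Apart from Spp1, members of these lists were named for their values.

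Hox genes, which mark a cell's position of origin along the body axis, were partly on. Of 26 Hox genes 6 were above 1 FPKM, with Hoxd8 at 44.8 ± 5.10, Hoxa7 at 25.1 ± 1.25, Hoxd9 at 5.72 ± 0.400 and Hoxa4 at 4.93 ± 0.170 the highest, and 4 were listed at 0 in all 6. Imprinted genes were led by Dlk1, Gnas, Igf2 at 154 ± 9.83 and Peg10 at 76.7 ± 7.92, and 9 of 12 were above 1 FPKM.

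Upstream sequence was read from RefSeq on the GRCm38.p6 build, which had a start for 13957 of 18185 nuclear protein-coding symbols; where a symbol had several starts the first was taken. The 150 bases before the start are shown for 6 genes: the 2 highest adipocyte identity genes with an entry, the highest ribosomal protein, the 2 highest sterol genes with an entry and the highest proliferation gene. Capitals mark CCAAT on either strand, the motif GGGCGG on either strand, and, within 50 bases of the start, TATAAA on the strand of the gene.
Cfd, chr10:79890703-79890852, plus strand: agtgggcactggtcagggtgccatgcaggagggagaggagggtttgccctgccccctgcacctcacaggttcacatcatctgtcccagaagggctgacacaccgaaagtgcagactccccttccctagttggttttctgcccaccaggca
Adipoq, chr16:23146386-23146535, plus strand: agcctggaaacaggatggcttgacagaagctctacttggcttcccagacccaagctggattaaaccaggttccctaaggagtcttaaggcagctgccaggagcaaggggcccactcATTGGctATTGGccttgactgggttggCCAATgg
Rps27, chr3:90213649-90213798, minus strand: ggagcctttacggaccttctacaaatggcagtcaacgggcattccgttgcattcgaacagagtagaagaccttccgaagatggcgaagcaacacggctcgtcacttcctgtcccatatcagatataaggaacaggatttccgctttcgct
Insig1, chr5:28071262-28071411, plus strand: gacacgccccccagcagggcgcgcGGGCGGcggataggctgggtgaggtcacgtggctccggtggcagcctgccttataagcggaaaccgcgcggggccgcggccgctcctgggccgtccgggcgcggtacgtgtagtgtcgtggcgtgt
Hmgcs1, chr13:119690201-119690350, plus strand: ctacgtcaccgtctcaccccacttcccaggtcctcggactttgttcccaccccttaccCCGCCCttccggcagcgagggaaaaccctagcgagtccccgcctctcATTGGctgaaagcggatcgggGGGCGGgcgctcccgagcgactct
Pcna, chr2:132253181-132253330, minus strand: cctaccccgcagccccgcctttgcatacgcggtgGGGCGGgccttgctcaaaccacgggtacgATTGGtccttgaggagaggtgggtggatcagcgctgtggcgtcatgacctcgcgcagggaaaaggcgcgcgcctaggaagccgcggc

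The letters differed between genes that were expressed and genes that were not. Within 250 bases upstream and on either strand, GGGCGG was found for 61.3% of the 7453 symbols at 1 FPKM or more and for 25.7% of the 6504 below 1. CCAAT was found for 37.8% and 34.3%. The motif TATAAA in the last 50 bases, on the gene's strand, was found for 1.25% and 6.03%. Within the expressed genes the shares did not follow level in 1 direction. TATAAA was found for 0.805% at 10 to 100 FPKM, 2.95% at 100 to 1000 and 4.76% of the 42 symbols at 1000 or more. GGGCGG was found for 64.0%, 60.6% and 47.6% of the same classes. Sterol synthesis and proliferation genes held CCAAT in 12 of 14 (85.7%) and 16 of 19 (84.2%) cases, and GGGCGG in the same numbers. They are named because their CCAAT shares were the highest of the lists read. The heat shock and unfolded protein list held CCAAT in 11 of 15 (73.3%). GGGCGG was as frequent in the insulin signalling and GLUT4 traffic list, 22 of 26 (84.6%), and in immediate early genes, 10 of 12 (83.3%). Adipocyte identity genes held CCAAT in 3 of 16 (18.8%) and GGGCGG in 8 of 16. No motif is contained in another, and a match is a description of these letters, not a bound site.

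Values of single genes were close between electroporations. The median CV was 7.11% over the 9542 nuclear protein-coding rows at 1 FPKM or more, 70.3% of the rows were under 10%, 6.07% were over 20% and 0.713% were over 50%. By level, the median CV fell from 13.1% at 1 to 3 FPKM to 6.37% at 10 to 30 and 5.84% at 100 to 300, and was 7.37% at 1000 or more. Counting alone sets part of this. In protein-coding genes with 1 annotated transcript, the variance divided by the mean of the estimated fragment numbers was 1.07 for 90 genes at 1 to 3 fragments, 0.947 for 34 genes at 10 to 30 and 12.4 for 29 genes at 3000 to 10000, where counting error without other spread gives 1. The CV beyond counting was 6.03% at 100 to 300 fragments and 4.28% at 3000 to 10000.

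**Figure D3:**
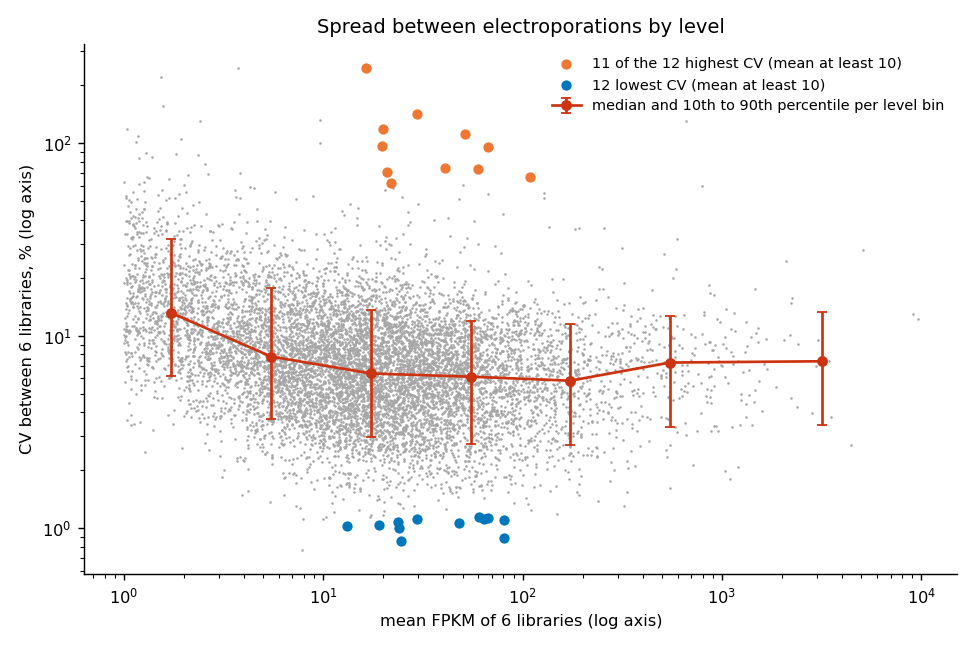
CV between the 6 control libraries against mean FPKM, both on log axes, 1 grey point per nuclear protein-coding row at 1 FPKM or more; red points and bars are the median and the 10th to 90th percentile in 7 level bins. The medians go from 13.1% in the lowest bin to 5.84% at 100 to 300 FPKM, and the 12 highest CVs among rows at 10 FPKM or more lie between 62.1% and 245%.

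A few rows at 10 FPKM or more were far less even. Gm17545, a predicted gene, was listed at 0 in 5 libraries and at 98.2 in library 6. Glce, an enzyme of heparan sulfate synthesis, was between 9.02 and 21.9 in 5 libraries and at 115 in library 2. Ddhd1 was at 66.8 in library 3 and between 7.42 and 22.6 elsewhere. In these 3 genes 1 library was far above the others.

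Another 8 of the 12 highest CVs were of both kinds, with 1 library apart or with values scattered over several. Ppp1r10, a phosphatase regulator, had its highest value of 165 in library 2, and Igf2bp1, an RNA-binding protein of growth, had its highest of 57.1 in library 6. Mcm7, a subunit of the replicative helicase, was at 25.9 to 30.1 in 5 libraries and at 102 in library 6, and its CV was 74.6% with that library and 5.94% without it. Prmt2 was scattered from 13.5 to 182, Uck2 from 14.2 to 113, Maml2 from 3.76 to 40.1, Rabggtb from 40.4 to 217 and Aatk from 12.2 to 41.0. Rpl7a, chosen after its values were seen, was at 580 to 626 in 5 libraries and at 1776 in library 6.

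Uneven rows often spanned a small RNA gene. Of the 12 loci 9 (75.0%) contained an annotated small RNA gene, against 1065 of all 6152 rows at 10 FPKM or more (17.3%). The share was 44.0% of the 100 highest CVs and 19 of the 100 lowest had one. Mcm7 held Mir106b, Mir25 and Mir93 in its locus, Rabggtb held Snord45b and Snord45c, Aatk held Mir338 and Mir3065, and Glce, Ddhd1, Ppp1r10, Igf2bp1 and Prmt2 held Mir5133, Mir5131, Mir1894, Mir3063 and Mir678 in that order. Uck2 and Gm17545 held none. The part that reads of a small RNA have in a host gene's value was not tested.

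**Figure D4:**
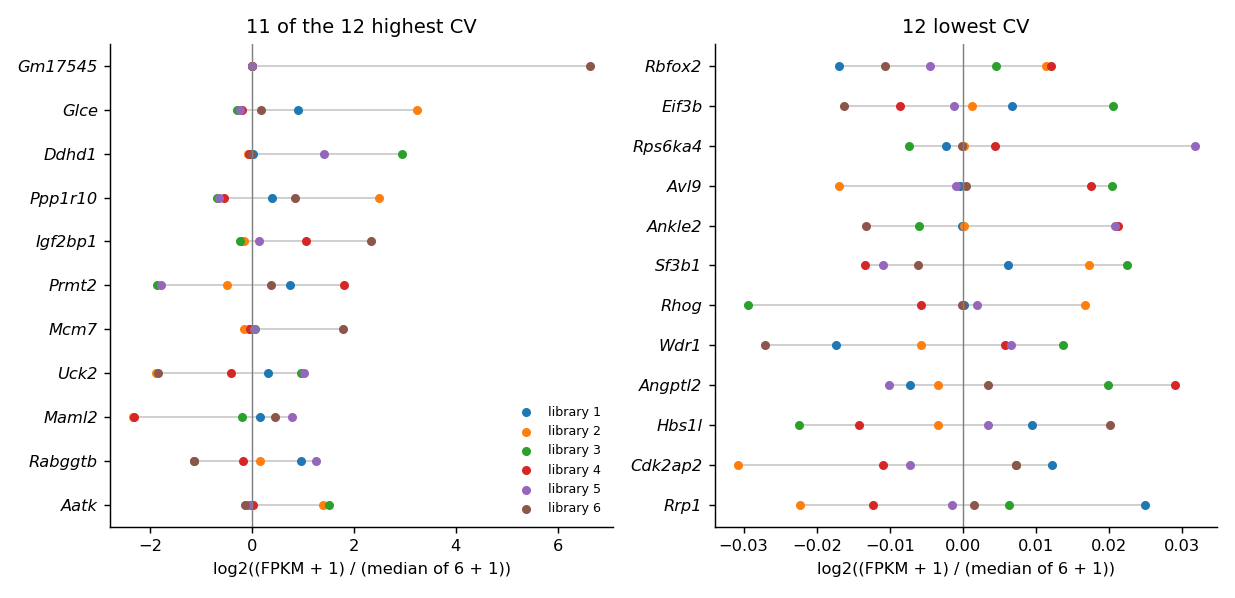
Rows from the 12 highest (left, 11 shown) and 12 lowest (right) CVs among nuclear protein-coding rows at 10 FPKM or more, as the log2 ratio of FPKM + 1 to the median of the 6 libraries + 1, 1 point per library; the scales of both panels differ. On the left some genes have 1 library far from the rest, as Mcm7 with 102 FPKM in library 6, and others such as Prmt2 are scattered over several libraries, and on the right the CVs are 0.860% to 1.14%.

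The evenest genes were of moderate level. Rbfox2, a splicing regulator, ranged from 24.3 to 24.8 FPKM (CV 0.860%), Eif3b, a translation initiation factor, from 80.1 to 82.2 (0.893%), and Rps6ka4, a kinase, from 23.8 to 24.5 (1.0098%). The splicing factor Sf3b1 was at 48.2 ± 0.514, Wdr1 at 80.2 ± 0.882, Angptl2, a secreted protein of fat and other tissues, at 64.1 ± 0.714, and Cdk2ap2 at 66.8 ± 0.753. Avl9, Ankle2, Rhog, Hbs1l and Rrp1 completed the set, and the highest CV of the 12 was 1.14%. This evenness is tied to the deposited scaling: with libraries centred on their medians the CV of Rbfox2 was 2.60% and the CV of Rrp1 1.55%, and with libraries scaled over all rows they were 10.5% and 9.37%.

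Genes used as qPCR references were not among the evenest. The 17 with a row had a median CV of 7.37%, from 3.39% for Nono to 12.2% for Rps18. The median CV was 7.11% for all expressed rows. It was 5.84% for rows at 100 to 300 FPKM, where the references' median level of 164 FPKM lies. Tbp, at 22.8 ± 2.55, had a CV of 11.2%, Ywhaz, at 129 ± 13.8, one of 10.7%, and Ppia one of 9.53%. Gapdh had 7.37%, Hprt at 92.7 ± 6.71 had 7.24%, Actb 4.86% and Pgk1 4.65%. Others of this list were Ppib at 121 ± 9.95, Tfrc at 59.9 ± 5.16, Gusb at 35.4 ± 2.53, Polr2a at 30.5 ± 2.62, Rplp0 and Sdha. Their median was 0.14 (log2) below the gene means in library 2, the library that was lowest in scale.

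Gene lists moved together between electroporations to different degrees. For each list with at least 4 members at 1 FPKM or more, the median deviation of its members from their own means was taken in each library on the log2(FPKM + 1) scale. Interferon response genes had the widest range of the 36 lists, 0.59, from -0.27 in library 6 to 0.32 in library 4. The range was 0.30 without library 4 and 0.41 without library 6. Library 4 was the highest of the 6 in 13 of 16 members (81.3%), where it was the highest in 15.7% of all expressed rows, and library 6 was the lowest in 12 of 16 (75.0%), against 15.96%. Among the highest members were Bst2 at 73.3 ± 9.04, Ifit3 at 23.9 ± 5.21 and Isg15 at 22.2 ± 3.83. Ifit3, an interferon-induced RNA-binding protein, was at 33.8 in library 4, at 18.1 in library 6 and at 22.7 to 23.3 in the other 4. Ifit1, chosen after its values were seen, was at 16.6 in library 4 and 7.51 in library 6, and Ifnb1, the interferon beta gene, was listed at 0 in all 6.

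**Figure D5:**
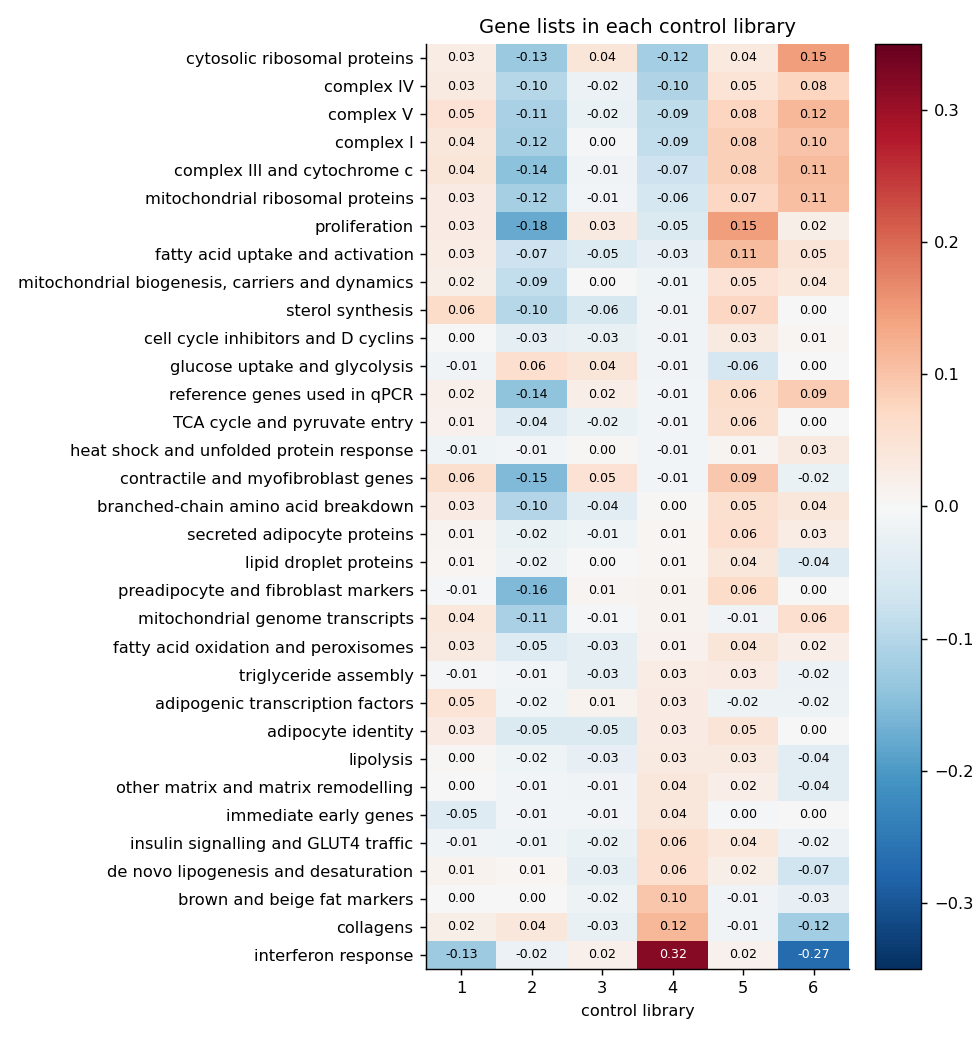
Median deviation of list members from their own mean over the 6 control libraries, log2(FPKM + 1), by list (rows, ordered by library 4) and library (columns); red is above and blue below the mean. The interferon response list reaches 0.32 in library 4 and -0.27 in library 6, and cytosolic ribosomal proteins are at -0.13 in library 2, -0.12 in library 4 and 0.15 in library 6.

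Ribosomal protein and nuclear respiratory chain lists had another pattern. Cytosolic ribosomal proteins deviated by -0.13 in library 2, -0.12 in library 4 and 0.15 in library 6, and complex I by -0.12, -0.09 and 0.10. Rows at 10 FPKM or more whose longest annotated transcript is under 1000 bases deviated by -0.11, -0.09 and 0.11 in the same libraries, whereas rows of 8000 bases or more deviated by -0.02, 0.08 and -0.04. Of the complex I genes 81.8% and of the cytosolic ribosomal proteins 80.8% had no transcript of 2000 bases or more. Collagens, none of them under 2000 bases, ran the other way, at 0.12 in library 4 and -0.12 in library 6. Lists with many short transcripts did not all show it: genes of the mitochondrial chromosome, all under 2000 bases, were at -0.11, 0.01 and 0.06 in libraries 2, 4 and 6, and secreted adipocyte proteins, 52.6% under 2000 bases, at -0.02, 0.01 and 0.03. The part of transcript length in these list patterns was not tested. Over all rows at 10 FPKM or more, the first principal component held 42.7% of the variance between libraries and set library 2 (loading -0.80) against library 6 (0.49). Libraries were not centred for it, so the lower scale of library 2 is part of it. The median log2(FPKM + 1) of rows at 1 FPKM or more was 4.05 in library 2 and 4.10 to 4.12 elsewhere.

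Proliferation genes had the next widest range as deposited, 0.32, from -0.18 in library 2 to 0.15 in library 5. With each library centred on its median it was 0.248, below the 0.255 of collagens and the 0.2495 of cytosolic ribosomal proteins. As deposited, the range of proliferation genes was 0.15 without library 2 and 0.19 without library 5. Their share of nuclear protein-coding FPKM was highest in library 6, at 0.05% against 0.0340% to 0.0388% in the others. Without Mcm7 library 6 was at 0.0311%, inside the range of 0.0286% to 0.0332%. Adipocyte identity genes, by comparison, had a range of 0.10 and lipolysis genes one of 0.07. The heat shock and unfolded protein list had a range of 0.05.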

How the data were processed

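RNA was sequenced from 6 control siRNA electroporations. The authors deposited FPKM values per gene and library. The submitters' processing notes name Cufflinks 2.0.2, SAMtools 0.1.18.0, TopHat2 2.0.5 and Bowtie2 2.0.0.7 without order or settings, and the genome build was not given in the sources read. The 6 columns of other libraries in the table were not used. The authors' own pooled FPKM of the control arm was within 5% of the mean of 6 for 94.4% of nuclear protein-coding rows at 1 FPKM or more. Of protein-coding rows found in GENCODE M21 (GRCm38), 99.6% overlapped that gene, and gene types and transcript lengths came from it. A symbol with several rows was read from its highest row, and 37 of 902 list entries had no row of their own.

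Python 3.11.15 with pandas 2.3.3, numpy 2.4.6 and scipy 1.17.1 was used. Detection was set at a mean of 1 FPKM and the pseudocount at 1. The group holds no contrast, so the one test of a difference is the exact sign-flip permutation test on gene pairs; Dixon's critical value was used only to single out libraries. The fragment total was the most frequent product of FPKM and length among values under 0.3 FPKM in transcripts of 2000 bases or more, an estimate added after the data were seen, from 9 to 19 rows at the peak. The scripts were tested on simulated data. The members and lists were chosen with earlier results of these data known. Genes were named by rule: the 30 highest rows, the 4 highest of each list and low members of adipocyte lists, the 12 highest and lowest CVs, the pairs, and qPCR references; others are marked. Some genes that the rule would name are not reported here.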

Additional observations from a re-analysis of the deposited data

Results flagged for a closer look

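In groups of 6 libraries, a value was singled out when the gap between the highest or lowest library and its nearest neighbour exceeded 0.625 of the whole range (Dixon's 95% critical value); chance does this for about 1 in 20 groups. Over all 9542 nuclear protein-coding rows at 1 FPKM or more it did so for 542 (5.68%). Of 172 named genes at 0.5 FPKM or more that were not picked by their CV it singled out 8 (4.65%). Another 7 came from the 23 genes picked for a high or low CV, a choice that favours such values, so their number is no result.

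Library 6 was high in Gm17545 (ratio of gap to range 1.00), Mcm7 (0.945) and Igf2bp1 (0.7105). Library 2 was high in Glce (0.878), Ppp1r10 (0.765) and Tcf7l1 (0.744), the last at 109 FPKM against 81.2 to 88.4 elsewhere. It was low in Cox8b (0.668), Hadhb (0.667), Cav1 (0.666) and Actb (0.662). Hadhb was at 262 FPKM there and at 343 to 383 in the other 5, Cav1 at 916 against 1031 to 1088 and Actb at 749 against 825 to 864. Library 3 was high in Ddhd1 (0.745) and low in mt-Nd1 (0.646), at 11152 FPKM against 13424 to 14671. Library 4 was high in Ifit3 (0.667) and low in Ndufv3 (0.702), at 391 FPKM against 421 to 434. Library 5 was high in Rps6ka4 (0.703), where the whole range was 23.8 to 24.5 FPKM.

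Of 57 quantities per library, such as shares of FPKM, 2 were singled out, fewer than chance gives on average. Library 6 was high in the share of proliferation genes (0.7002) and low in the share of the mitochondrial chromosome once short-RNA names were left out (0.654), at 5.25% against 5.79% to 6.07%.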

How the results depend on the processing

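Results were recomputed with other scalings, filters, pseudocounts and offsets, with rows of 1 symbol summed, without rows the authors mark as failed or low in data, and without each library in turn. Of 272 recomputed values of the main results 260 were counted as the same and 12 as moved, and none changed sign. The limit was 1.5 times for counts and the spread between libraries for other values. Gene pairs were an exception, as some were counted as the same beyond that spread. Ucp2 over Ucp1 was 7.51 in the main setting and 10.8 with a pseudocount of 0.1. Insr over Igf1r was 2.02 in the main setting, 2.24 with a pseudocount of 0.1 and 2.27 with none.

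The median CV of 7.11% was 11.3% with libraries scaled over all rows, 11.2% with no filter on level, 6.12% as a median absolute deviation and 4.76% as the SD of log2 values with a pseudocount of 5. Leaving out 1 library gave 6.31% to 7.38%, the lowest without library 2. With members below 1 FPKM counted, the preadipocyte and fibroblast list had a median 0.951 of that of rows at 1 FPKM or more. It was 0.699 without failed or low-data rows, Dlk1 among them. With short-RNA names left out, the mitochondrial chromosome held 5.81% in place of 23.6% of summed FPKM, and nuclear protein-coding rows 26.7% in place of 16.6%. Ranges of list deviations, an alternative added after seeing the data, with 1 library left out went from 0.14 to 0.26 for collagens (lowest without library 6), from 0.15 to 0.36 for proliferation and from 0.30 to 0.61 for the interferon response. The causes of these shifts were not tested.

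With 5 libraries the sign-flip test cannot go below p = 0.0625 by exact permutation, so leaving out a library gives values of the gene pairs and no test. No paired analysis was possible because the control libraries form a single group with no contrast between groups. The fragment total is an estimate, and whether differences of low rows exceed counting error is limited by about 1 fragment per 0.03 FPKM at 1000 bases.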
